A study of Mus musculus with 42 samples.

Results

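The 8 genes described here make or handle reactive small molecules in phagocytes and in mitochondria. They are Acod1, Nos2, Cybb, Cyba, Ncf1, Ncf4, Hmox1 and Sod2. They were chosen by symbol, through the Ensembl identifiers of 2 deposited count tables. All 8 were found among the 36604 genes of the joint soft tissue table and among the 54752 genes of the lymph node table. All 8 also passed the filter on low counts, which left 16149 joint genes and 18312 node genes for testing.

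RNA came from wild-type C57BL/6 mice in a study of knee arthroplasty, in which an implant replaces joint surfaces. The design addressed immune and repair responses in the joint and in lymph nodes. Joint soft tissue gave 6 groups of 4 libraries, labelled RST day 3, RST day 7, RST day 14, RST day 21, RST day 35 and LST day 35. The labels spell out neither code, and LST was sampled on day 35 alone, so a comparison of an earlier RST day with LST day 35 changes label and day at once. The node set held 3 libraries in each of 6 groups, labelled Implant, ContraImplant and NoImplant on day 7 and on day 14. Column names mark Implant nodes as surgery nodes and both other kinds as nodes without surgery. Each ContraImplant node came from the opposite side of a mouse that also gave an Implant node. NoImplant nodes came from other mice, marked in column names as without implant and without surgery. Nothing states that the 4 joint libraries of a group came from separate animals, so joint p-values rest on a spread between samples that may be technical.

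Itaconate is made from an intermediate of the citric acid cycle by Acod1, an enzyme that activated macrophages and neutrophils switch on. Nos2, the inducible nitric oxide synthase, makes nitric oxide from arginine. The phagocyte NADPH oxidase makes superoxide: Cybb and Cyba form its membrane core, and Ncf1 and Ncf4 are cytosolic subunits that join the core on activation together with the small GTPase Rac2. Hmox1, the inducible haem oxygenase, degrades haem to biliverdin, carbon monoxide and iron, and Sod2, the manganese superoxide dismutase of mitochondria, turns superoxide into hydrogen peroxide. Macrophages and neutrophils are known sources of the oxidase, Acod1 and Nos2, and macrophages of Hmox1, whereas Sod2 is present in all cells with mitochondria and abundant in oxidative tissue such as muscle.

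Total counts per library were 17842090 to 28024003 in the joint and 22041900 to 44371001 in the nodes. The tissue labels were checked against markers. Summed skeletal muscle markers reached 43780 to 158300 CPM (counts scaled to a common library size with TMM factors) in joint libraries. In node libraries B cell markers summed to 2483 to 4963 CPM and T cell markers to 1336 to 1891 CPM. All measurements were of whole tissue, so fewer cells of a type and less RNA per cell cannot be told apart.

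The membrane core of the oxidase had its highest group means on the earliest day. Cybb (chromosome X, 9435252 to 9487771, minus strand, mm10 with GENCODE M21) encodes the catalytic subunit, which carries electrons across the membrane. Its level was 42.2, 43.5, 30.7 and 48.5 CPM on RST day 3 and 34.6, 28.8, 41.1 and 27.4 CPM on RST day 7. It was 26.3, 38.5, 20.8 and 21.2 CPM on RST day 14 and 14.9, 25.7, 10.5 and 16.0 CPM on RST day 21. On RST day 35 it was 9.06, 8.63, 10.6 and 11.0 CPM, against 8.95, 3.42, 5.03 and 3.17 CPM in LST day 35. All 16 libraries of RST days 3 to 21 lay above all LST libraries, while RST day 35 overlapped with them through the LST library at 8.95 CPM. RST day 7 overlapped with RST day 3, and this step did not pass (log2 fold change −0.32 ± 0.26, edgeR adjusted p = 0.328). In edgeR's quasi-likelihood test the log2 fold change over LST was 3.0 ± 0.29 (SE) on day 3 (adjusted p = 9.59e-09), 2.68 ± 0.29 on day 7, 2.38 ± 0.29 on day 14 and 1.71 ± 0.29 on day 21 (adjusted p = 0.000127). On day 35 it was 0.93 ± 0.30 and did not pass (edgeR adjusted p = 0.0991), but it passed with all libraries in DESeq2 (0.92, adjusted p = 0.0316) and without the low-count filter (0.92, 0.0152), and without LST replicate 1 (1.33, 0.0141). LST replicate 1 also had the highest neutrophil marker sum of its group, 66.2 CPM, against 5.37 to 28.5 CPM in the other 3.

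Cyba (chromosome 8, 122424776 to 122432930, minus strand) encodes the partner that stabilises the catalytic subunit. It stood at 126, 79.1, 66.7 and 88.1 CPM on RST day 3, at 50.5, 53.3, 72.9 and 59.1 CPM on RST day 7 and at 38.3, 50.8, 28.1 and 30.9 CPM on RST day 14. It stood at 17.5, 36.9, 14.3 and 26.0 CPM on RST day 21 and at 10.2, 12.1, 15.4 and 18.1 CPM on RST day 35, against 6.92, 5.70, 7.37 and 5.27 CPM in LST day 35. No RST library, day 35 included, came down to the LST range. Relative to LST the edgeR log2 fold change was 3.83 ± 0.28 on day 3 (adjusted p = 2.79e-10), 3.22 ± 0.28 on day 7, 2.55 ± 0.27 on day 14, 1.91 ± 0.27 on day 21 and 1.14 ± 0.28 on day 35 (adjusted p = 0.0218). The gene overlaps Gm20388 on the opposite strand, and the strand setting of the counting is not given in the sources used here, so reads of this pair cannot be told apart.

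The cytosolic subunits had the same order of days. Ncf1 (chromosome 5, 134220053 to 134229625, minus strand), the organiser that carries the cytosolic complex to the membrane, averaged 36.1 ± 5.66 CPM on RST day 3, 17.4 ± 3.49 on day 7, 11.7 ± 2.90 on day 14, 9.07 ± 4.63 on day 21 and 5.43 ± 1.29 on day 35, against 2.51 ± 0.60 CPM in LST day 35 (SD, n = 4 each). Its 4 values on RST day 35 were 4.03, 5.12, 5.45 and 7.13 CPM, against 3.30, 1.96, 2.64 and 2.15 CPM in LST day 35, and these ranges did not overlap. As a log2 fold change, the edgeR estimate was 3.84 ± 0.29 on day 3 (adjusted p = 3.03e-10) and 1.11 ± 0.29 on day 35 (adjusted p = 0.0395). Ncf1 overlaps Gtf2ird2 on the opposite strand, with the same uncertainty.

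Ncf4 (chromosome 15, 78244801 to 78262580, plus strand) encodes a cytosolic subunit that binds a membrane lipid of the phagosome. Its level was 18.6, 16.7, 13.8 and 12.8 CPM on RST day 3 and 1.23, 2.10, 1.72 and 2.87 CPM on RST day 35, against 0.989, 0.912, 1.32 and 0.716 CPM in LST day 35. Day 3 lay far above LST, and day 35 overlapped with it. The edgeR log2 fold change was 3.95 ± 0.36 on day 3 (adjusted p = 3.70e-09), 3.31 ± 0.36 on day 7, 2.46 ± 0.36 on day 14, 2.05 ± 0.37 on day 21 and 0.99 ± 0.40 on day 35 (adjusted p = 0.252).

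**Figure D1:**
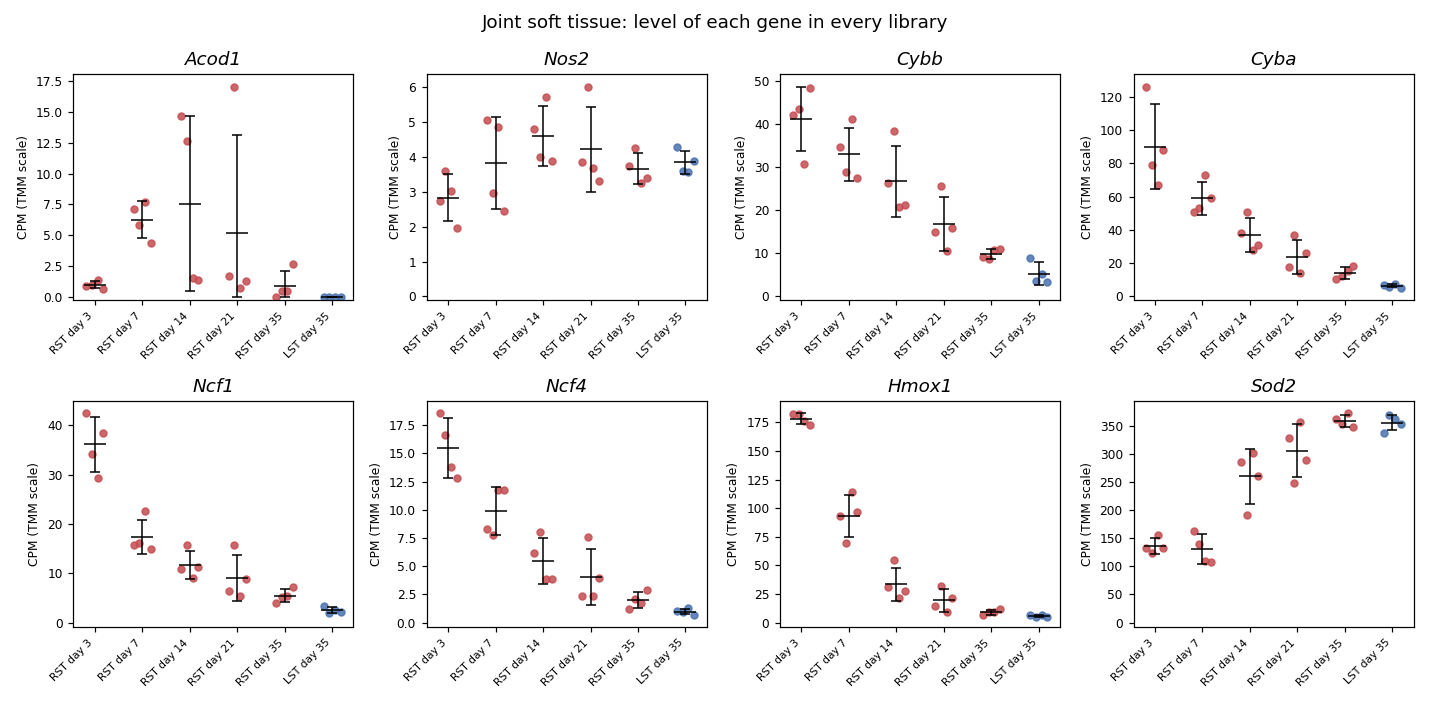
Level of each of the 8 genes in joint soft tissue, in CPM on the TMM scale (linear axis, 1 panel per gene). Points are the 4 libraries of a group (red, RST; blue, LST day 35), horizontal bars are means and whiskers the SD, ended at 0 where they would pass below it. Cybb, Cyba, Ncf1, Ncf4 and Hmox1 have their highest means on RST day 3, Acod1 is spread between libraries on days 14 and 21, Nos2 stays between 1.96 and 6.01 CPM, and Sod2 is lowest on RST days 3 and 7.

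Promoters are shown where a searched motif matched. They are those of Cybb and Ncf1, which moved together with the rest of the oxidase, and of Sod2, which moved the other way. Each is the 250 bases before the RefSeq start on GRCm38.p6, 5′ to 3′ on the gene's strand, with searched motifs in capitals. The windows are chrX:9469325-9469574 on the minus strand for Cybb, chr5:134229626-134229875 on the minus strand for Ncf1 and chr17:13007589-13007838 on the plus strand for Sod2. The windows of Cybb and Sod2 lie inside the longer GENCODE spans of these genes.
Cybb: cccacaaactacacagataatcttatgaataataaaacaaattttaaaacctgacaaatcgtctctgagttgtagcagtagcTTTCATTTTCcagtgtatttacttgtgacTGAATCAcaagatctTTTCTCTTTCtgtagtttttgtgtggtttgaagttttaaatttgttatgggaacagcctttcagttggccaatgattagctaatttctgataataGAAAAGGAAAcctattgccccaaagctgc
Ncf1: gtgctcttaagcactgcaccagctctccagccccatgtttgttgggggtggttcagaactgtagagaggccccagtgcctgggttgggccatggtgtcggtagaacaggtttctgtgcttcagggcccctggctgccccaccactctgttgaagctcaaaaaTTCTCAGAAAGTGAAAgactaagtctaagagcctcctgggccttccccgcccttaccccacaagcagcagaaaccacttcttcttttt
Sod2: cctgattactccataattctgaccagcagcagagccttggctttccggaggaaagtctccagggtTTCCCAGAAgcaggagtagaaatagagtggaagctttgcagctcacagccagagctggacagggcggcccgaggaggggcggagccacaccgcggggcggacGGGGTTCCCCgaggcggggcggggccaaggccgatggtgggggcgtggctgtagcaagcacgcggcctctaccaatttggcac
In Cybb the capitals mark 3 matches to the interferon-stimulated response element (GAAA, any NN, then GAAA), 168, 124 and 29 bases before the start, and 1 match to AP-1 (TGANTCA) at 139 bases. In Ncf1 they mark a GAS element (TTCNNNGAA) at 88 bases that overlaps an interferon-stimulated response element at 82 bases. In Sod2 they mark a GAS element at 185 bases and a kappa-B consensus at 83 bases; its 10 letters read as a match on either strand. Both strands were searched. Of the 5 promoters that matched the 8 genes (Acod1, Cybb, Cyba, Ncf1 and Sod2), 2 held the interferon-stimulated response element, 2 the GAS element, 1 AP-1 and 1 kappa-B, while PU.1 (GAGGAAG) and the antioxidant response element (TGACNNNGC) matched in 0. Among 32851 promoters of the same length the shares were 2.98% for the interferon-stimulated response element, 7.02% for GAS, 6.75% for AP-1, 3.9% for kappa-B, 10.6% for PU.1 and 10.2% for the antioxidant response element. The windows of Acod1 and Cyba, which are not shown, held none of the 6 motifs searched. A match describes the letters of the window and shows no bound factor.

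The remaining oxidase genes were looked at as a list of 11 partners and other oxidases, of which 9 were tested in the joint. On RST day 3, 5 rose and 1 fell relative to LST day 35, and on day 7, 6 rose and 2 fell. Of all genes tested, 68.7% passed on day 3 and 76.1% on day 7, and the counts of this and the following lists stand beside those shares. Rac2, the haematopoietic Rac, averaged 22.1 ± 2.64 CPM on RST day 3, against 2.23 ± 0.85 CPM in LST day 35 (log2 fold change 3.31 ± 0.31, edgeR adjusted p = 7.0e-09). Cybc1, a chaperone of the membrane core, averaged 19.5 ± 1.72 CPM on RST day 3, against 5.66 ± 0.65 CPM in LST day 35 (SD, n = 4 each; 1.78 ± 0.17, edgeR adjusted p = 9.59e-09). On RST day 35, Nox4, an oxidase of fibroblasts and vessels, averaged 6.59 ± 1.26 CPM, against 3.27 ± 0.62 CPM in LST day 35, and rose (1.01 ± 0.26, edgeR adjusted p = 0.0348).

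Acod1 (chromosome 14, 103046977 to 103056573, plus strand) followed another course and was not at its highest on day 3. It stood at 0.882, 0.935, 1.32 and 0.641 CPM on RST day 3 and at 7.15, 5.82, 7.72 and 4.36 CPM on RST day 7. It stood at 14.7, 12.7, 1.51 and 1.35 CPM on RST day 14 and at 1.70, 17.1, 0.713 and 1.29 CPM on RST day 21. On RST day 35 it was 0, 0.485, 0.430 and 2.62 CPM, against 0 counts in all 4 LST libraries. The 4 libraries of day 7 were alike, whereas day 14 split into 2 high and 2 low libraries and day 21 held 1 high library. Against a floor of 3 counts over the LST group, which is 0.0348 CPM, the group means were at least 27.2-fold higher on day 3, 180-fold on day 7, 217-fold on day 14, 149-fold on day 21 and 25.4-fold on day 35.

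In edgeR's test Acod1 passed against LST on day 3 (adjusted p = 0.0315), day 7 (0.00029), day 14 (0.000398) and day 21 (0.00213) and did not pass on day 35 (0.288), where DESeq2 called it (adjusted p = 0.000547). It rose at day 7 relative to day 3, by 2.73 ± 0.96 on the log2 scale (edgeR adjusted p = 0.029), and no later step passed. The call on day 3 rested on 17 to 31 counts a library and was lost without RST day 3 replicate 3 and without any 1 of LST replicates 1 to 4 (edgeR adjusted p 0.0525 to 0.0569). The rise at day 7 was lost without RST day 3 replicate 1, 2 or 4 or RST day 7 replicate 3 (0.0568 to 0.0693).

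Neutrophil markers and Acod1 were set side by side within days. On day 14, the libraries at 14.7 and 12.7 CPM of Acod1 had neutrophil marker sums of 38.9 and 66.2 CPM, and those at 1.51 and 1.35 CPM had sums of 13.8 and 16.4 CPM. The day 21 library at 17.1 CPM had a sum of 77.8 CPM, and the other 3 had 17.8, 8.50 and 34.5 CPM. On day 3, however, the sums were 40.6 to 152.5 CPM with Acod1 at 1.32 CPM or less, and the LST library with a sum of 66.2 CPM held 0 counts of Acod1. The day 21 library was also the highest of its group in macrophage and monocyte markers (851.4 CPM, against 273.1 to 558.5 CPM in the other 3). The part of these cells in the level of Acod1 was not tested.

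Genes with the pattern most like that of Acod1 over the 24 joint libraries were the neutrophil chemokine Cxcl2 (Pearson r = 0.967 of log2 CPM), the cystine transporter Slc7a11 (0.953) and Hdc, which makes histamine (0.948). These libraries share groups and depth, so the coefficients are descriptions. Slc7a11, also listed among targets of the transcription factor Nrf2, averaged 2.05 ± 0.60 CPM on RST day 3, 7.09 ± 1.40 on day 7, 5.38 ± 3.76 on day 14, 3.94 ± 5.98 on day 21 and 1.05 ± 1.13 on day 35, against 0.0566 ± 0.0693 CPM in LST day 35 (SD, n = 4 each).

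The neighbours of itaconate in the citric acid cycle ran in the opposite direction early on. Of 11 listed enzymes and carriers, 2 rose and 9 fell on RST day 3 relative to LST day 35, and likewise 2 and 9 on day 7. Cs, citrate synthase, averaged 359 ± 43.2 CPM on RST day 3, against 907 ± 21 CPM in LST day 35 (log2 fold change −1.34 ± 0.14, edgeR adjusted p = 1.80e-08). Sdha, a subunit of the succinate dehydrogenase that itaconate inhibits, averaged 408 ± 80.5 CPM on RST day 7, against 1131 ± 21.8 CPM in LST day 35 (−1.47 ± 0.15, adjusted p = 1.10e-08). At day 14 relative to day 7, 9 of the 11 rose and 0 fell, beside 20.9% of all genes higher and 18.0% lower. Skeletal muscle marker sums moved with this list: the mean was 0.454-fold that of LST on RST day 3, 0.374-fold on day 7 and 0.698-fold on day 14. Their part in the list's change was not tested.

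Nos2 (chromosome 11, 78920787 to 78960254, plus strand) did not pass in any joint comparison. It stood at 2.74, 3.60, 3.03 and 1.96 CPM on RST day 3, at 5.07, 2.96, 4.84 and 2.45 CPM on RST day 7 and at 4.79, 4.0, 5.72 and 3.87 CPM on RST day 14. It stood at 3.85, 6.01, 3.68 and 3.32 CPM on RST day 21 and at 3.75, 4.26, 3.25 and 3.39 CPM on RST day 35, against 4.29, 3.60, 3.58 and 3.89 CPM in LST day 35. Every RST day overlapped with LST. Relative to LST the edgeR log2 fold change was −0.43 ± 0.23 on day 3 (adjusted p = 0.0983), −0.01 ± 0.23 on day 7, 0.26 ± 0.23 on day 14, 0.14 ± 0.23 on day 21 and −0.07 ± 0.23 on day 35 (adjusted p = 0.976). With library totals in place of TMM the value on day 7 was 0.61 (adjusted p = 0.0223), and the day 3 value passed in a fit of these 2 groups alone (−0.51, adjusted p = 0.0285) and without RST day 3 replicate 2 (−0.58, 0.0472). Over the 5 RST days together Nos2 was the 1 gene of the 8 that did not pass for any change (edgeR adjusted p = 0.0761), where 7 of the 8 and 79.6% of all genes passed, and it passed there without RST day 3 replicate 2 (0.0464) or RST day 7 replicate 4 (0.0395). Without that day 7 library it also passed at day 7 relative to day 3 (0.59, 0.041).

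Per kilobase of exon, Acod1 stood at 0.566 ± 0.124 of Nos2 on RST day 3 and at 2.84 ± 0.403 on RST day 7 (SD, n = 4 each), so the order of these 2 levels differed between the days. On day 14 the ratio per library ran from 0.443 to 5.33, and in LST day 35 Acod1 was at 0 counts. The highest correlation of any gene with Nos2 over the 24 libraries was 0.695, for Eps8l2, while each of the other 7 genes had at least 1 gene above 0.9.

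Of the 12 genes of the nitric oxide and arginine list, 8 rose and 4 fell on RST day 3 relative to LST day 35, 8 rose and 2 fell on day 7, and 1 rose on day 35, beside 68.7%, 76.1% and 2.97% of all genes that passed in either direction on these days. Nos1, the synthase of nerve and muscle, averaged 70.0 ± 23.9 CPM on RST day 3, 32.4 ± 8.43 on day 7, 97.0 ± 24.1 on day 14, 142 ± 24.9 on day 21 and 174 ± 21.4 on day 35, against 228 ± 15.5 CPM in LST day 35 (SD, n = 4 each). Its log2 fold change was −2.82 ± 0.23 on day 7 (edgeR adjusted p = 7.90e-10). Gch1, the first enzyme of the cofactor that nitric oxide synthases need, averaged 8.95 ± 1.57 CPM on RST day 3, against 3.89 ± 0.21 CPM in LST day 35 (1.2 ± 0.13, adjusted p = 2.93e-08). Ass1, which rebuilds arginine from citrulline, averaged 7.65 ± 0.89 against 2.46 ± 0.23 CPM in the same comparison (1.63 ± 0.19, adjusted p = 1.50e-07). Arg1, the arginase that competes for arginine, averaged 60.4 ± 23.0 CPM on RST day 3 and 16.6 ± 5.81 on day 7. Ddah2, which breaks down an inhibitor of nitric oxide synthases, was the 1 listed gene that passed on RST day 35 (14.6 ± 2.30 CPM, against 9.05 ± 0.90 CPM in LST day 35, edgeR adjusted p = 0.0183).

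Hmox1 (chromosome 8, 75093621 to 75100589, plus strand) had the largest difference from LST among the 7 genes with LST counts on days 3, 7 and 14. It stood at 182, 182, 176 and 172 CPM on RST day 3, at 93.3, 69.4, 114 and 96.3 CPM on RST day 7 and at 30.7, 54.4, 21.5 and 27.3 CPM on RST day 14. It stood at 14.2, 32.3, 9.43 and 21.2 CPM on RST day 21 and at 6.69, 8.79, 8.94 and 11.9 CPM on RST day 35, against 6.17, 4.70, 6.26 and 4.96 CPM in LST day 35. The day 3 libraries lay within 172 to 182 CPM, and no RST library overlapped with LST. As a log2 fold change, the edgeR estimate was 5.01 ± 0.33 on day 3 (32.2-fold, adjusted p = 8.73e-11), 4.08 ± 0.32 on day 7, 2.60 ± 0.31 on day 14, 1.81 ± 0.31 on day 21 (adjusted p = 0.000118) and 0.71 ± 0.31 on day 35 (adjusted p = 0.321).

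Hmox1 fell at 3 of the 4 steps. The edgeR log2 fold change was −0.93 ± 0.27 at day 7 relative to day 3 (adjusted p = 0.0079), −1.47 ± 0.27 at day 14 relative to day 7 (adjusted p = 0.000358) and −1.10 ± 0.29 at day 35 relative to day 21 (adjusted p = 0.0405). At day 21 relative to day 14 it was −0.79 ± 0.28 (adjusted p = 0.103). The last of the falls was lost without RST day 21 replicate 2 or 4, or RST day 35 replicate 1, 2 or 3 (edgeR adjusted p 0.0842 to 0.346).

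Against the catalytic oxidase subunit, Hmox1 per kilobase was 14.8 ± 3.05 times Cybb on RST day 3, 9.45 ± 1.57 on day 7, 4.07 ± 0.53 on day 14, 3.68 ± 0.72 on day 21 and 3.05 ± 0.52 on day 35, against 4.04 ± 1.25 in LST day 35 (SD, n = 4 each). The lowest ratio on day 3 was 11.8 and the highest in LST 5.19, so these groups did not overlap. Cyba per kilobase was 12.3 ± 3.09 times Cybb on RST day 3, against 7.78 ± 2.36 in LST day 35. These ratios of levels are descriptions without a test.

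The other haem and iron genes were mostly higher on the earliest day. Of 9, 7 rose and 1 fell on RST day 3 relative to LST day 35, 4 rose and 1 fell on day 7, and 3 rose on day 21, when 21.7% of all genes were higher. Ftl1, the ferritin light chain, averaged 418 ± 142 CPM on RST day 3, against 44.6 ± 2.32 CPM in LST day 35 (log2 fold change 3.23 ± 0.23, edgeR adjusted p = 1.98e-10). Blvrb, a biliverdin reductase, averaged 19.5 ± 2.58 against 5.36 ± 1.12 CPM (1.86 ± 0.17, adjusted p = 5.41e-09). Slc40a1, the iron exporter, averaged 16.9 ± 2.67 CPM on RST day 3, against 43.3 ± 4.94 CPM in LST day 35, the 1 fall of the list (−1.36 ± 0.13, adjusted p = 1.19e-08). Cd163, the haemoglobin receptor of macrophages, averaged 30.1 ± 12 CPM on RST day 3 and fell at day 7, to 7.53 ± 0.42 CPM (−2.00 ± 0.23, edgeR adjusted p = 9.29e-07).

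Among Nrf2 regulators and targets, 5 of 9 rose and 2 fell on RST day 3 relative to LST day 35, and 3 rose and 4 fell on day 7, totals near the shares of all genes that passed on these days (68.7% and 76.1%). Gclm, a subunit of the enzyme that starts glutathione synthesis, averaged 34.9 ± 2.23 CPM on RST day 3, against 22.9 ± 1.78 CPM in LST day 35 (0.61 ± 0.09, edgeR adjusted p = 3.23e-06). Nqo1, a quinone reductase, averaged 9.10 ± 1.17 CPM on RST day 7, against 23.9 ± 4.85 CPM in LST day 35 (−1.39 ± 0.15, adjusted p = 2.08e-08). At day 7 relative to day 3, 1 of the 9 rose and 7 fell, beside 18.7% of all genes higher and 22.5% lower.

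Sod2 (chromosome 17, 13006846 to 13040063, plus strand) went the other way from the oxidase. It stood at 132, 123, 157 and 132 CPM on RST day 3 and at 163, 141, 110 and 107 CPM on RST day 7. It stood at 286, 192, 302 and 261 CPM on RST day 14 and at 328, 248, 358 and 289 CPM on RST day 21. On RST day 35 it was 362, 353, 372 and 348 CPM, against 337, 369, 362 and 354 CPM in LST day 35. The first 3 days lay below LST without overlap, and RST day 35 lay among the LST values.

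Relative to LST the edgeR log2 fold change of Sod2 was −1.39 ± 0.14 on day 3 (adjusted p = 1.55e-08), −1.45 ± 0.14 on day 7 (5.98e-09) and −0.45 ± 0.14 on day 14 (0.00756). On day 21 it was −0.22 ± 0.14 and on day 35 0.01 ± 0.14, and neither passed. It rose at day 14 relative to day 7, by 1.0 ± 0.14 on the log2 scale (edgeR adjusted p = 4.79e-05). With library totals in place of TMM the day 14 difference from LST no longer passed (−0.17, adjusted p = 0.131). The genes most like Sod2 over the 24 joint libraries were the mitochondrial Ndufs1, Suclg1 and Uqcrc2, all at r = 0.996. Muscle marker means were 0.454-fold of LST on RST day 3 and 0.374-fold on day 7, and the share of counts from mitochondrial genes was 5.46 to 6.50% on RST day 3 and 3.84 to 5.69% on day 7, against 9.73 to 11.1% in LST day 35. Their part in the level of Sod2 was not tested. The RST day 21 library with the lowest Sod2 (248 CPM) had the lowest muscle marker sum of its group, 114700 CPM, against 144700 to 151800 CPM in the other 3.

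Other enzymes that remove superoxide and peroxide did not follow Sod2 as a list. Of 12, 7 rose and 2 fell on RST day 3 relative to LST day 35, 6 rose and 6 fell on day 7, and 1 rose on day 35, when 2.92% of all genes were higher. Gpx1, the cytosolic glutathione peroxidase, averaged 196 ± 35.6 CPM on RST day 3, against 53.4 ± 4.16 CPM in LST day 35 (log2 fold change 1.88 ± 0.15, edgeR adjusted p = 6.24e-10), and still differed on RST day 35 (79.9 ± 11.1 CPM, adjusted p = 0.0269). Txn1, cytosolic thioredoxin, averaged 196 ± 48.4 against 52.0 ± 4.53 CPM on RST day 3 (1.91 ± 0.14, adjusted p = 2.74e-10). Sod3, the extracellular dismutase, averaged 111 ± 15.9 CPM on RST day 7, against 21 ± 3.82 CPM in LST day 35 (2.40 ± 0.28, adjusted p = 7.58e-08). Prdx3, the mitochondrial peroxiredoxin, averaged 92.8 ± 12.1 CPM on RST day 7, against 193 ± 13.1 CPM in LST day 35 (−1.05 ± 0.12, adjusted p = 8.06e-08).

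Inflammatory inducers were read as a further list, of which 9 of 10 genes were tested. On RST day 3, 7 rose and 0 fell relative to LST day 35, on day 7, 8 rose and 0 fell, and on day 21, 5 rose. Of all genes, 21.7% were higher on day 21. Il1b, a cytokine of activated myeloid cells, averaged 6.66 ± 2.40 CPM on RST day 3, 17.9 ± 5.15 on day 7, 10.6 ± 8.17 on day 14, 8.58 ± 11.1 on day 21 and 1.61 ± 1.2 on day 35, against 0.223 ± 0.108 CPM in LST day 35 (SD, n = 4 each). Hif1a, the oxygen-sensing transcription factor, averaged 101 ± 9.93 CPM on RST day 3 and 171 ± 25.0 on day 7, against 24.6 ± 0.82 CPM in LST day 35 (log2 fold change on day 7 2.80 ± 0.22, edgeR adjusted p = 6.54e-10).

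Counted together against LST day 35, 6 of the 8 genes were higher and 1, Sod2, was lower on RST days 3, 7 and 14, 6 were higher on day 21, and 2, Cyba and Ncf1, were higher on day 35, all in edgeR. DESeq2 called 4 on day 35, Acod1 and Cybb besides these 2. Of all genes tested, 68.7% passed in either direction on day 3, 76.1% on day 7, 57.9% on day 14, 27.1% on day 21 and 2.97% on day 35. Genes higher made up 38.6%, 41.0%, 33.4%, 21.7% and 2.92% on these days in turn, and genes lower 30.1%, 35.1%, 24.5%, 5.42% and 0.0495%. The median log2 fold change of the 8 genes was 3.83, 3.0, 2.42, 1.84 and 0.96 from day 3 to day 35, beside 0.0858, 0.079, 0.0347, 0.0191 and 0.0163 over all genes, and it was the same with Acod1 at its lower bound. With library totals in place of TMM the median of all genes was 0.61, 0.707, 0.327, 0.136 and 0.0406. Under that scaling, 85%, 82.9%, 87.6% and 91.8% of the calls on days 3, 7, 14 and 21 were higher, where TMM gave 56.2%, 53.9%, 57.6% and 80%.

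On day 35 the calls for Cyba and Ncf1 depended on single libraries. Cyba no longer passed without RST day 35 replicate 3 or 4 or LST replicate 2 or 4 (edgeR adjusted p 0.0572 to 0.117), nor Ncf1 without RST day 35 replicate 2, 3 or 4 or LST replicate 2, 3 or 4 (0.0727 to 0.186).

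**Figure D2:**
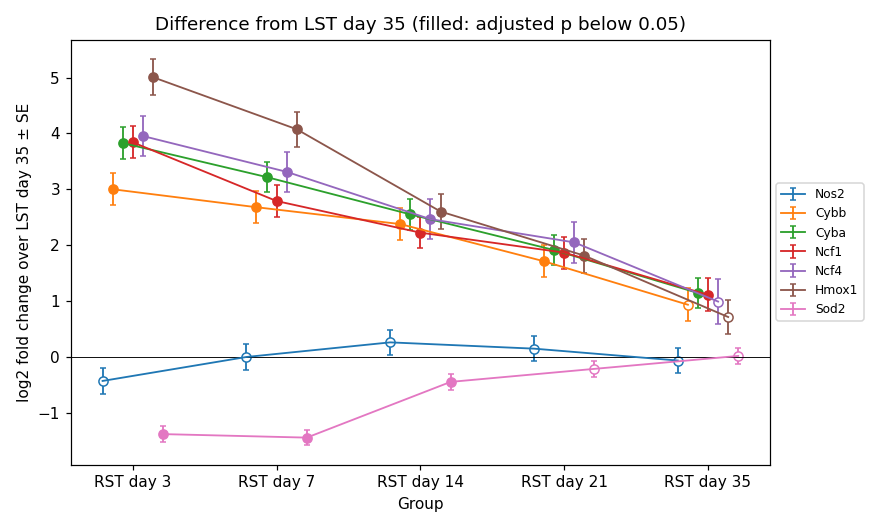
Log2 fold change over LST day 35 on each RST day for the 7 genes with counts in LST, with edgeR's standard errors as bars. Filled points had an adjusted p below 0.05. Hmox1 starts at 5.01 and ends at 0.71, the 4 oxidase subunits start between 3.0 and 3.95, Sod2 starts at −1.39, and Nos2 has open points throughout.

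Between neighbouring RST days, 1 of the 8 genes rose and 3 fell at day 7 relative to day 3, where 41.2% of all genes passed, 18.7% higher and 22.5% lower. The rise was that of Acod1, and the falls were those of Cyba (log2 fold change −0.61 ± 0.24, edgeR adjusted p = 0.0475), Ncf1 (−1.05 ± 0.24, 0.00135) and Hmox1. At day 14 relative to day 7, Sod2 rose and Cyba (−0.67 ± 0.24, 0.0343), Ncf4 (−0.85 ± 0.30, 0.0281) and Hmox1 fell, where 38.9% passed, 20.9% higher and 18.0% lower. The Cyba fall at day 7 was also lost with library totals (−0.50, edgeR adjusted p = 0.178), and Ncf4 passed at that step without the low-count filter (−0.65, 0.0471) and with only these groups fitted (−0.60, 0.0169). The calls for Cyba and Ncf4 in these steps were lost in part of the fits without 1 library: Cyba at day 7 without RST day 3 replicate 1 or 4 or RST day 7 replicate 1, 2 or 4 (edgeR adjusted p 0.0687 to 0.205), and at day 14 without RST day 7 replicate 3 or 4 or RST day 14 replicate 1, 3 or 4 (0.059 to 0.118). Ncf4 was lost at day 14 without RST day 7 replicate 3 or 4 or RST day 14 replicate 3 or 4 (0.0782 to 0.0988).

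At day 21 relative to day 14 none of the 8 genes passed in edgeR, and DESeq2 also called 0. Of all genes, 0.737% passed in edgeR, 0.0867% higher and 0.650% lower. An unadjusted edgeR p below 0.05 was found for 3 of the 8 genes and for 4151 of all 16149 genes tested. Without RST day 21 replicate 2, however, 6 fell: Acod1, Cybb, Cyba, Ncf1, Ncf4 and Hmox1 (edgeR adjusted p 0.0047 to 0.0256), and the count over all genes was 4466 in place of 119. Hmox1 alone passed without RST day 14 replicate 3 (0.0435). At day 35 relative to day 21, Hmox1 was the 1 gene that passed, where 3.97% of all genes passed, 0.0805% higher and 3.89% lower. Without RST day 21 replicate 3, 5 passed, without replicate 1, 4, and without replicate 2 or 4, 0. The count over all genes moved as well, to 1884 without replicate 3 and to 35 without replicate 2, in place of 641.

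RST day 21 replicate 2 was at one end of its group in all 8 genes, though it lay far from the other 3 by Dixon's criterion in Acod1 alone. It was the highest of the 4 libraries in Acod1, Nos2, Cybb, Cyba, Ncf1, Ncf4 and Hmox1 and the lowest in Sod2. On day 14, replicate 2 was likewise the highest in Cybb, Cyba, Ncf1, Ncf4 and Hmox1 and the lowest in Sod2, but replicate 1 was the highest in Acod1 and replicate 3 in Nos2. Day 14 replicate 2 had the highest macrophage and monocyte marker sum of its group as well, 1175 CPM, against 628.9 to 767.1 CPM in the other 3.

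Across groups the oxidase moved with macrophage and monocyte markers. The sum of 10 such markers averaged 1712 CPM on RST day 3, 1199 on day 7, 820.5 on day 14, 522.6 on day 21 and 276.6 on day 35, against 88.2 CPM in LST day 35, or 19.4-, 13.5-, 9.32-, 5.94- and 3.14-fold. It ran from 1350 to 2177 CPM over the RST day 3 libraries and from 68.1 to 98.1 CPM over those of LST, and at most 1 of the markers was at 0 in any joint library. On the same days Cybb was 8.0-, 6.4-, 5.19-, 3.27- and 1.91-fold of LST. Neutrophil markers averaged 76.5 CPM on RST day 3, 52.4 on day 7, 33.8 on day 14, 34.6 on day 21 and 10.8 on day 35, against 27.6 CPM in LST day 35, whose 4 libraries ran from 5.37 to 66.2 CPM. Osteoclast markers were 9.58-, 30.1-, 21.6-, 12.1- and 5.43-fold of LST from day 3 to day 35. The part of these cell types in the levels of the 8 genes was not tested.

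**Figure D3:**
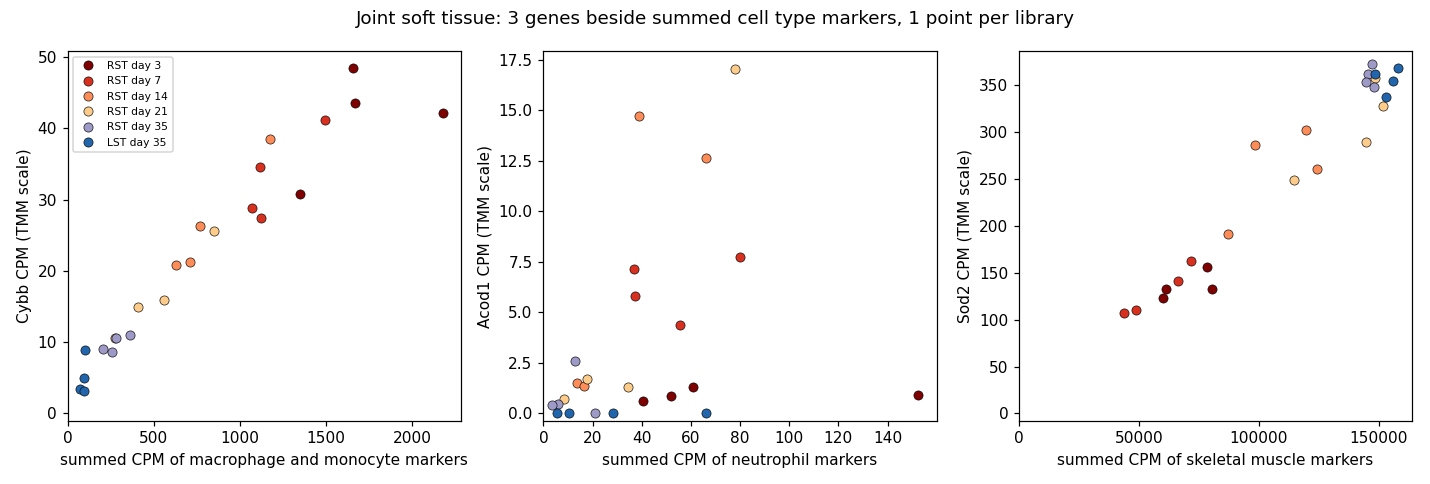
Levels of 3 genes beside summed cell type markers in the 24 joint libraries, 1 point per library, both axes in CPM on the TMM scale and coloured by group. Cybb lies along the macrophage and monocyte sum from 88.2 CPM (mean of LST day 35) to 1712 CPM (mean of RST day 3), Acod1 is at 0 counts in an LST library with a neutrophil sum of 66.2 CPM and at 17.1 CPM in an RST day 21 library with 77.8 CPM, and Sod2 is low where the muscle sum is low.

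Over the joint libraries, the genes closest to Cybb were Myo1f (r = 0.983), Lilr4b (0.981) and Rac2 (0.98). For Cyba they were Efhd2 and Arpc1b (both 0.996) and Adam8 (0.995), and for Ncf1 Cotl1 (0.994) and Itgam (0.993). For Ncf4 they were Nfam1 (0.989), Arhgap30 and Ccr1 (both 0.988). Hmox1 was closest to Ctps2 (0.993), Atad2 (0.989) and Fermt3 (0.988). Itgam is also 1 of the macrophage markers above.

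In lymph nodes the 8 genes were compared between Implant, ContraImplant and NoImplant nodes, and the oxidase was present in every group. Cyba averaged 364 ± 5.06 CPM in Implant, 400 ± 37.8 in ContraImplant and 468 ± 48.3 CPM in NoImplant nodes on day 7, and 397 ± 37.4, 456 ± 47.0 and 482 ± 18.1 CPM in Implant, ContraImplant and NoImplant nodes on day 14 (SD, n = 3 each). Its 3 Implant values were below all NoImplant values on both days. Relative to NoImplant the log2 fold change in Implant nodes was −0.36 ± 0.10 on day 7 (edgeR adjusted p = 0.0964) and −0.28 ± 0.10 on day 14 (0.0835), so neither passed. DESeq2 called it on both days (−0.37, adjusted p = 0.013, and −0.29, 0.0344).

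Cybb held 211, 287 and 280 CPM in Implant, 179, 204 and 266 CPM in ContraImplant and 192, 191 and 193 CPM in NoImplant nodes on day 14. Implant lay above NoImplant without overlap, and the log2 difference of 0.43 ± 0.14 did not pass (edgeR adjusted p = 0.0714), while DESeq2 (0.43, adjusted p = 0.0298) and library totals (0.47, adjusted p = 0.0458) called it. B cells, which also carry the oxidase, made up part of these nodes: their summed markers were 1.49-fold higher in Implant than in NoImplant nodes on day 14, and macrophage and monocyte markers were 0.951-fold. The part of B cells in this difference was not tested. On day 7 Cybb averaged 239 ± 5.75 CPM in Implant, 225 ± 10.8 in ContraImplant and 226 ± 36.5 CPM in NoImplant nodes. Ncf1 had group means of 196 to 235 CPM and Ncf4 of 115 to 142 CPM over the 6 node groups.

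Acod1 was low in every node group, with 0.349 to 1.40 CPM per library and 9 to 46 counts. Nos2 held 6.15, 4.76 and 4.59 CPM in Implant, 7.41, 13.7 and 6.41 CPM in ContraImplant and 6.17, 6.32 and 5.64 CPM in NoImplant nodes on day 7. The Implant nodes were below all ContraImplant nodes, and the log2 difference of −0.82 ± 0.24 did not pass (edgeR adjusted p = 0.0974). It passed in DESeq2 (−0.83, adjusted p = 0.0247) and without ContraImplant replicate 1 (−0.96, 0.0345) or replicate 3 (−1.01, 0.0373), and without replicate 1 Ncf4 passed too (0.39, 0.0152). Over all genes, however, the count for this comparison also rose, from 131 to 1113 in DESeq2 and to 2030 without ContraImplant replicate 1. The ContraImplant library at 13.7 CPM was also the one with the highest adipocyte marker sum of all nodes, 4676 CPM, against 58.4 and 288 CPM in the other 2 of its group and 200 to 454 CPM in Implant nodes. It was also the highest of its group in endothelial markers (1242 CPM, against 691 and 684 CPM in the other 2) and in the share of mitochondrial counts (4.08%, against 1.38 and 1.41%). The part of these in the difference was not tested.

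On day 7 Hmox1 varied widely between nodes of a group, most of all in NoImplant nodes. It stood at 190, 111 and 124 CPM in Implant, 111, 84.7 and 61.4 CPM in ContraImplant and 200, 61.6 and 41.2 CPM in NoImplant nodes on day 7. On day 14 it stood at 90.8, 135 and 141 CPM in Implant, 99.8, 106 and 138 CPM in ContraImplant and 85.9, 77.2 and 85.7 CPM in NoImplant nodes. Day 14 Implant and ContraImplant nodes all lay above the NoImplant nodes. For Implant, the log2 difference from NoImplant of 0.56 ± 0.42 did not pass (edgeR adjusted p = 0.399). Sod2 averaged 67.7 ± 1.09 CPM in Implant, 89.2 ± 23.3 in ContraImplant and 76.5 ± 6.49 CPM in NoImplant nodes on day 7, and 65.2 ± 3.46, 75.9 ± 3.66 and 85.3 ± 19.3 CPM in Implant, ContraImplant and NoImplant nodes on day 14 (SD, n = 3 each). The Implant nodes were below all NoImplant and ContraImplant nodes on both days, with log2 fold changes of −0.18 to −0.40 that did not pass. Mean adipocyte marker sums were also lowest in Implant nodes, at 338 CPM on day 7 and 161 CPM on day 14. They were 1674 and 917 CPM in ContraImplant and 977 and 1473 CPM in NoImplant nodes. ContraImplant day 7 libraries at 58.4 and 288 CPM did not lie above the Implant libraries, at 200 to 454 CPM. The part of adipocytes in the level of Sod2 was not tested.

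**Figure D4:**
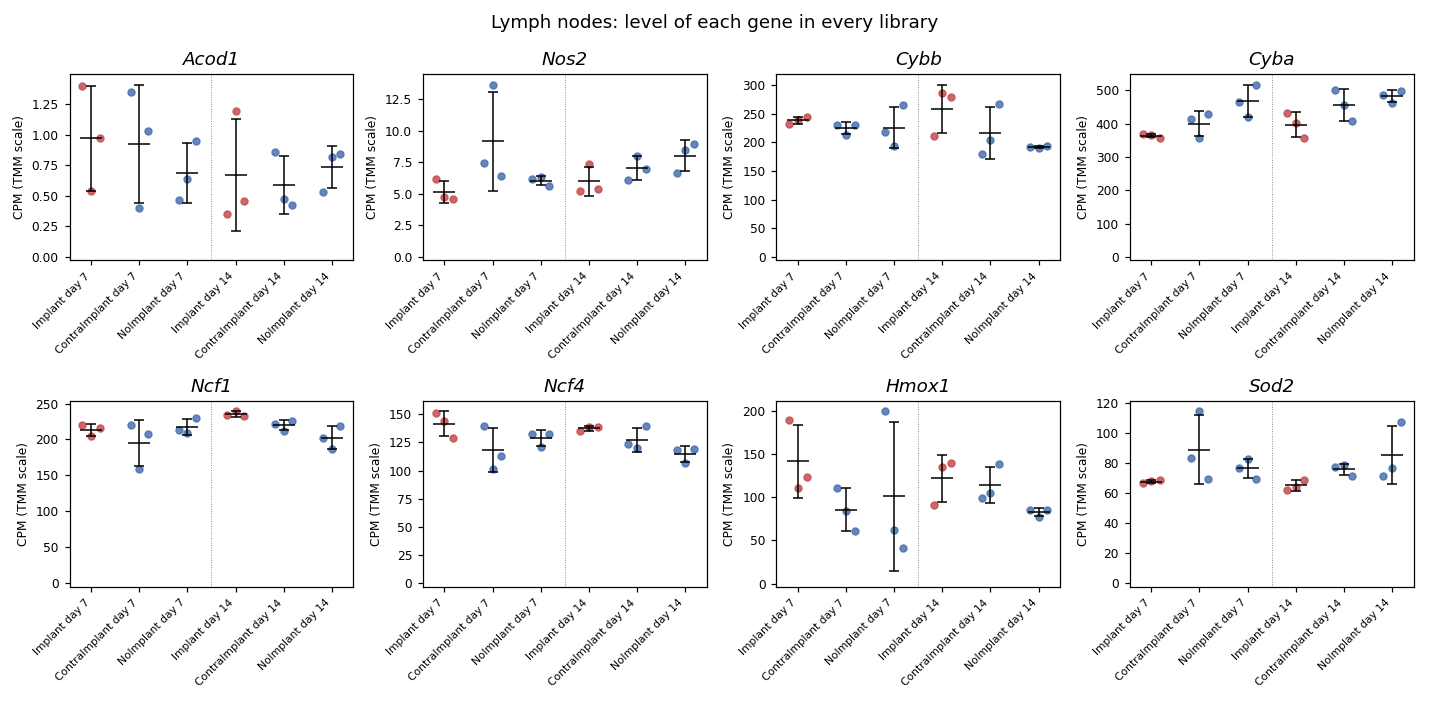
Level of each of the 8 genes in lymph nodes, in CPM on the TMM scale (linear axis, 1 panel per gene). Points are the 3 libraries of a group (red, Implant; blue, ContraImplant and NoImplant), bars are means and whiskers the SD, and the dotted line divides day 7 from day 14. Cyba and Sod2 are lower and, on day 14, Cybb is higher in Implant than in NoImplant nodes, none past the threshold in edgeR.

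In edgeR 0 of the 8 genes passed in all 11 node comparisons, interactions with day included. For Implant against NoImplant nodes, 1 had an unadjusted p below 0.05 on day 7 and 5 on day 14, and DESeq2 called 1 and 2. For Implant against ContraImplant nodes the counts were 3 on day 7 and 0 on day 14, and DESeq2 called 1 and 0. For ContraImplant against NoImplant nodes they were 2 on day 7 and 0 on day 14, and DESeq2 called 0 on both days. For day 14 against day 7 within a kind of node and for the interactions the unadjusted count and the DESeq2 count were 0. Over all 18312 node genes tested, the unadjusted count in edgeR was 3326 on day 7 and 5196 on day 14 for Implant against NoImplant. It was 3764 and 1550 for Implant against ContraImplant, and 1349 and 1062 for ContraImplant against NoImplant. For the day comparisons and interactions it ran from 334 to 3456. The shares that follow are at the adjusted threshold. Of all node genes, 0.0437% passed for Implant against NoImplant on day 7 (0.0382% higher, 0.00546% lower), 5.97% on day 14 (3.44% higher, 2.53% lower), 0.715% for Implant against ContraImplant on day 7 (0.175% higher, 0.541% lower), 0.0164% for NoImplant nodes on day 14 against day 7 and 0% in the other 7 comparisons.

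The 1094 genes behind the 5.97% numbered 0 without NoImplant day 14 replicate 2, and the 131 behind the 0.715% numbered 0 without ContraImplant day 7 replicate 2. The 131 numbered 19 with the animal as a block in a fit that also left out all NoImplant nodes. With only the groups compared and no block they numbered 0, so the effect of the block alone is not shown. The 8 genes stayed at 0 calls in each of these fits.

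Genes that work beside the 8 did pass in day 14 nodes, on Implant relative to NoImplant. All these calls were lost without NoImplant day 14 replicate 2, when 0 genes of the node set passed. Of the 12 enzymes that remove superoxide and peroxide, 4 fell and 0 rose, beside 2.53% of all node genes lower and 3.44% higher. Txn1 averaged 140 ± 16.3 CPM in Implant, against 197 ± 16.2 CPM in NoImplant nodes (log2 fold change −0.50 ± 0.13, edgeR adjusted p = 0.0356), Txn2, mitochondrial thioredoxin, 131 ± 5.51 against 170 ± 13.1 CPM (−0.38 ± 0.10, 0.0378), and Prdx1, a cytosolic peroxiredoxin, 115 ± 4.53 against 145 ± 6.91 CPM (−0.34 ± 0.08, 0.0356). In the nitric oxide and arginine list Pts, an enzyme of cofactor synthesis, rose (75.7 ± 6.96 against 60.4 ± 2.04 CPM, adjusted p = 0.031), and Spr, the last enzyme of that synthesis, and Ddah2 fell. Of 10 oxidase partners tested in nodes, 0 passed in edgeR in the same comparison. On day 7, Blvrb and Fth1, the ferritin heavy chain, fell in Implant relative to ContraImplant nodes: Fth1 averaged 1176 ± 33.4 against 1548 ± 170 CPM (−0.40 ± 0.08, edgeR adjusted p = 0.0413). The calls for Blvrb and Fth1 were lost without ContraImplant day 7 replicate 2, when 0 genes passed. Adipocyte marker sums differed in the same comparisons, with 161 CPM in Implant against 1473 CPM in NoImplant nodes on day 14 and 338 CPM in Implant against 1674 CPM in ContraImplant nodes on day 7. Their part in these differences was not tested.

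Per kilobase of exon, the ratio of Cyba to Cybb ranked the day 7 node groups. The ratios of Ncf1 to Ncf4, Ncf1 to Cybb, Hmox1 to Cybb and Acod1 to Nos2 overlapped between these groups. Reads of Cyba and Gm20388 cannot be told apart, as stated above. Cyba was 8.54 ± 0.32 times Cybb in Implant, 9.93 ± 0.49 in ContraImplant and 11.6 ± 0.67 in NoImplant nodes on day 7, with no overlap between the 3 groups. On day 14 the ratio was 8.80 ± 2.31 in Implant, 12.3 ± 3.56 in ContraImplant and 14 ± 0.44 in NoImplant nodes (SD, n = 3 each). Implant did not overlap with NoImplant nodes on day 14, but ContraImplant nodes, at 8.57 to 15.7, overlapped with both. These ratios are descriptions without a test. Genes closest to Cybb over the 18 node libraries were Pik3ap1 (r = 0.94), Vcpip1 (0.913) and Tlr9 (0.907), and those closest to Cyba were Ppp1r11 (0.957), Dad1 (0.935) and Spint2 (0.928).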

How the data were processed

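The submitters' processing notes name fastp, STAR and the mm10 build, with versions, counter, annotation, strand setting and treatment of multi-mapping reads not given in the sources used here. Per the labels' protocols, each library started from 100 ng total RNA of flash-frozen tissue. The authors deposited raw counts per gene as whole numbers, 1 table per tissue. Symbols, positions and exon lengths came from GENCODE M21. Each tissue was fitted once over all its groups with edgeR 4.0.16 in R 4.3.3 (filterByExpr with a minimum count of 10, TMM scaling, quasi-likelihood F test), and p-values were adjusted over all genes tested by Benjamini-Hochberg, with a threshold of 0.05. SE is the size of the log2 fold change divided by the square root of F. Likeness used log2 CPM with a prior count of 2. DESeq2 1.42.0, other scalings and filters, narrower fits, a replicate block and leaving out each library were tried as alternatives.

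The 8 genes and the gene lists were chosen with earlier results of these data known. Besides the 8 genes, up to 3 genes per list and comparison were named, those with the smallest adjusted p among those that passed, and further listed genes are given to complete a series. Implant and ContraImplant nodes with the same number came from the same mouse, and their deviations from the group means correlated at 0.106 to 0.352 on day 7 and 0.179 to 0.402 on day 14. The main fit held no block for the mouse, so its p-values treat nodes of the same mouse as independent. Replicates differed by more than sampling noise, with a lowest chi-square per degree of freedom of 8.27. Depth limits Acod1 most, and floors cover counting error only. Results of 1 further gene are not reported here.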

Additional observations from a re-analysis of the deposited data

Results flagged for a closer look

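In groups of 4 joint libraries, Acod1 had a highest value far from the other 3 on RST day 21, 17.1 CPM in replicate 2. Ncf1 likewise had a highest value far from the other 3 on RST day 7, 22.6 CPM in replicate 3, where the other 3 lay between 15.0 and 16.2 CPM. Of 47 groups tested with Dixon's criterion these were the 2 that passed, and chance gives about 1 in 20.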

How the results depend on the processing

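Of the single-gene results, 168 of 168 kept direction and side of the threshold with DESeq2 size factors, 155 of 163 with DESeq2, 160 of 168 with library totals, 160 of 168 without the low-count filter, 161 of 167 with only the groups compared, 162 of 167 with a replicate block and 1299 of 1360 with a library left out. Nos2 on RST day 7 against LST day 35 reversed under library totals (0.61). The number of the 8 genes that passed moved by over 1.5 times as follows, and the cause was not tested. For RST day 35 against LST day 35 it was 2, and 0 with library totals, 4 with DESeq2 and 4 with the replicate block. For RST day 21 against day 14 it was 0, and 1 without the filter. For RST day 35 against day 21 it was 1, and 0 with library totals, 6 without the filter, 3 with DESeq2, 0 with only the groups compared and 0 with the replicate block. For Implant against NoImplant nodes it was 0 on both days, with 1 by DESeq2 and 1 with only the groups compared on day 7, and 1 with library totals and 2 by DESeq2 on day 14. For Implant against ContraImplant nodes on day 7 it was 0, and 1 by DESeq2. Smaller moves were 7 to 8 for RST day 3 and for day 7 against LST day 35, 6 to 7 for day 14, 3 to 5 for RST day 7 against day 3, 4 to 5 for day 14 against day 7 and 7 to 8 for any change. With a library left out, the counts ran from 2 to 4 for RST day 7 against day 3, 2 to 5 for day 14 against day 7, 0 to 6 for day 21 against day 14, 0 to 5 for day 35 against day 21, 0 to 3 for RST day 35 against LST day 35, 6 to 8 for RST day 3 against LST day 35, 7 to 8 for any change, and 0 to 2 for Implant against ContraImplant nodes on day 7. RST and LST samples shared only a number (correlations of 0.0829 to 0.191 on day 35). For that comparison the block was fitted to RST and LST day 35 libraries alone, so block and narrower fit changed together. This fit gave 1221 genes in place of 479, and Cybb (edgeR adjusted p = 0.0229) and Hmox1 (0.0275) passed. Hmox1 also passed there with only the groups compared and no block (0.0349). With the block over all joint libraries Nos2 passed for any change (edgeR adjusted p = 0.0453). Cyba at day 7 against day 3 (0.0616) and Hmox1 at day 35 against day 21 (0.0533) did not. Over all genes, RST day 35 against LST day 35 gave 227 with library totals and 783 with DESeq2, and Implant against NoImplant nodes on day 14 gave 2437 with DESeq2 and 620 with only the groups compared, in place of 1094.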
